A study of Rattus norvegicus with 98 samples.

Results

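Formaldehyde reaches the rat nose either as a gas that is breathed in or as a solution placed in the nostrils, and the comparison described here asks which of its effects on gene expression in the nasal epithelium differed between those routes. The effect of inhalation was 15 ppm minus air, the effect of instillation was 400 mM formaldehyde minus water, and the difference by route is the inhaled effect minus the instilled effect, so that a negative value means that the gene stood higher, relative to its own control, after instillation. The members are the 16 arrays of the 4 groups of the later array set, out of 98 arrays in the series, chosen from dose, route, time and animal number in the labels and not from any measured value. Each group held 4 animals, all male F344/NCrl rats 8 weeks old and all collected at 6 h. The inhaled group breathed 15 ppm in whole-body chambers, its controls (animals 321, 322, 323 and 325) breathed air at 0 ppm, the instilled group received 40 ul of 400 mM formaldehyde per nostril, and its controls received 40 ul of distilled water per nostril. Inhalation animals were killed 6 h after exposure began, whereas instilled animals received a single liquid dose 6 h earlier, so route, delivered dose and course in time change together and cannot be told apart. Cells were taken off the level II region of the nose with proteases after the olfactory epithelium had been discarded, and the preparation is described in the labels as mainly transitional with some respiratory epithelium.

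Formaldehyde is a small, water-soluble aldehyde that binds proteins and DNA and crosslinks them, and most of what is inhaled is taken up by the lining of the nose. Injured epithelial cells and resident leukocytes release chemokines and cytokines, many of them switched on by the transcription factor NF-kappaB, and these call neutrophils and monocytes out of the blood. A separate set of genes answers type I interferon through the factors that bind the interferon-stimulated response element, while chaperones are raised by heat shock factor when proteins unfold and thiol defence genes by NRF2.

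Values are log2 signals as deposited, and where a gene had several probe sets the one brightest on average over the 98 arrays stands for it. Of 14217 genes, 149 had effects that differed by route (1.05%, limma, Benjamini-Hochberg adjusted p under 0.05), with 103 negative (0.724%) and 46 positive (0.324%) differences. Over all 31042 probe sets 273 differed (0.879%), and 3030 had an unadjusted p under 0.05. The median difference by route was 0.00 over all genes (0.0033 before rounding), with a median SE of 0.17. For comparison, the inhaled effect alone was called in 11.1% of genes (5.23% up, 5.86% down) and the instilled effect in 26.3% (11.1% up, 15.1% down). The 4 probe sets that differed between air and water animals (0.0129% of probe sets) included none of the 149, whose air and water means were at most 0.84 apart on the log2 scale.

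The difference lay mostly on the side of instillation. Among the 103 genes with a negative difference, 84 rose after instillation and were not called after inhalation, 16 rose after both and more after instillation, and 3 fell after inhalation and were not called after instillation. Their median effect was 0.21 for inhalation and 1.55 for instillation, and the instilled group had the highest mean of the 4 groups in all 103. Among the 46 genes with a positive difference, 33 fell after instillation and were not called after inhalation, 10 fell after both and more after instillation, 2 rose after inhalation alone, and 1 rose after inhalation and fell after instillation. Their median effect was -0.21 for inhalation and -1.08 for instillation. All 4 instilled formaldehyde animals lay above the other 12 animals in 88 of the 103 genes and below them in 30 of the 46, which the choice of called genes favours, against 4.35% and 4.33% of all genes.

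**Figure D1:**
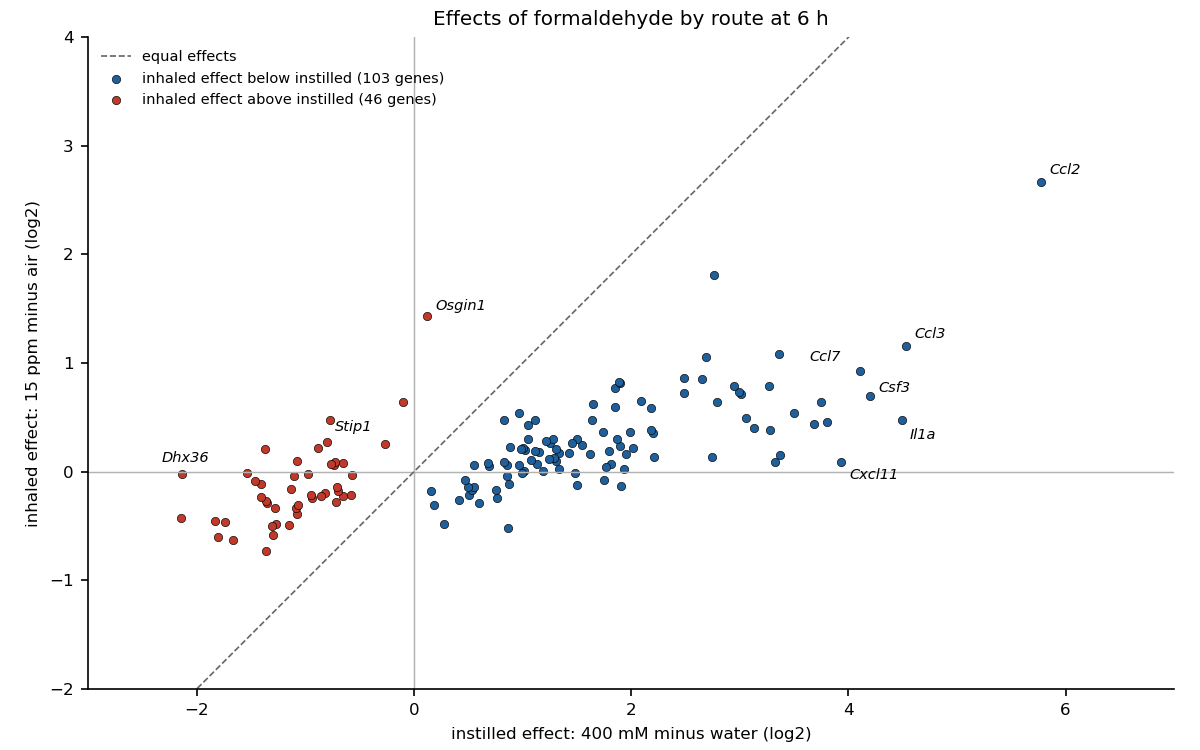
Effect of inhalation (15 ppm minus air, vertical) against effect of instillation (400 mM formaldehyde minus water, horizontal), both in log2, for the 149 genes called for the difference by route. Each point is a gene, the dashed line marks equal effects, the 103 blue genes lie below it and the 46 red genes above it. Of the blue genes 84 were called on the horizontal axis only, while 16 rose on both, among them Ccl2 at 2.66 and Zfand2a at 1.81 on the vertical axis.

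Single animals moved these counts. Genes called numbered 61 without instilled animal 374, 254 without 369, 274 without 372 and 93 without water animal 352, and 113 without instilled animals 365 and 374 together, of which 72 were among the 149. RNA integrity numbers were 7.7 to 8.2 in inhaled animals, 7.3 to 7.8 in air animals, 8.3 to 8.4 in instilled formaldehyde animals and 7.5 to 8.3 in water animals, and a fit to the 16 arrays alone called 65 genes without and 34 genes with this number as a covariate. Among the 149 genes, 50 stayed called in the first of these fits (42 negative, 8 positive) and 26 in the second (19 and 7). The call was lost by 36 and 49 of the 70 genes named here. Of the 70 genes named here, 16 were called in every planned fit that gave them a value: Ccl2, Ccl7, Cxcl3, Cxcl6, Csf3, Il6, Tnf, Tnfaip3, Isg15, Cxcr2, Osgin1, Tsku, Nat8f3, Nat8f5, Fam107a and Gpr155. Arrays of 1 group correlated at 0.985 to 0.992 (15 ppm), 0.991 to 0.995 (air), 0.978 to 0.989 (instilled formaldehyde) and 0.989 to 0.994 (water).

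The promoters of a few of these genes are shown because chemokine, cytokine and interferon-stimulated genes lead the genes with a negative difference, and letters typical of NF-kappaB or interferon factor sites can be looked for in them. The sequences are RefSeq's, on the rat GRCr8 build, 250 bases upstream of the gene's start, read 5′ to 3′ on the gene's strand. Capitals mark the kappaB pattern in the first 4, which is GGGA and TTCC with any 2 bases between them (the second run of Cxcl10 and the run of Cxcl6 hold a match on each strand, which overlap). In the last 2 they mark the interferon-stimulated response element, which is GAAA, any 2 bases and GAAA again, and both patterns were searched on both strands.
Cxcl10: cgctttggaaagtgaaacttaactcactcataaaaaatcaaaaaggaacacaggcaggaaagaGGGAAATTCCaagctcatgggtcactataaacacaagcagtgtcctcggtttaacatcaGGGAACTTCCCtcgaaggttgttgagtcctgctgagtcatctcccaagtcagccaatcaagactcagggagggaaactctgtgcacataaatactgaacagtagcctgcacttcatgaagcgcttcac
Il6: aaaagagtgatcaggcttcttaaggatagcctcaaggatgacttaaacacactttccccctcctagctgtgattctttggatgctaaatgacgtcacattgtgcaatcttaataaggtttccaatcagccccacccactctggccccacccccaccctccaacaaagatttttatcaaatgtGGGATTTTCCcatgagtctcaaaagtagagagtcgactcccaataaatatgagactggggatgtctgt
Cxcl6: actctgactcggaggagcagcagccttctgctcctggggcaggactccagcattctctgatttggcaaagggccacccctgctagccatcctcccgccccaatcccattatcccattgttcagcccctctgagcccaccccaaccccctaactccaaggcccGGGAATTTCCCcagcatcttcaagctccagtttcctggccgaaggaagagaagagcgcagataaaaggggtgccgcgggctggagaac
Ccl7: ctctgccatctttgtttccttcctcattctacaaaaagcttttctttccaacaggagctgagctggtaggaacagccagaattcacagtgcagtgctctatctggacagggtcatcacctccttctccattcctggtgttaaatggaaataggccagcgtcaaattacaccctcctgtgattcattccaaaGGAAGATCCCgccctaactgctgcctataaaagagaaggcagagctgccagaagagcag
Oas1a: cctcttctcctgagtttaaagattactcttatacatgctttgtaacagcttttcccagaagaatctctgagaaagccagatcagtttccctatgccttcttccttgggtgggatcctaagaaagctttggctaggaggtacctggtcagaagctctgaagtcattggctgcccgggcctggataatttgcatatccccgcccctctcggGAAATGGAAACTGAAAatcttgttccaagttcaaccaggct
Ifit3: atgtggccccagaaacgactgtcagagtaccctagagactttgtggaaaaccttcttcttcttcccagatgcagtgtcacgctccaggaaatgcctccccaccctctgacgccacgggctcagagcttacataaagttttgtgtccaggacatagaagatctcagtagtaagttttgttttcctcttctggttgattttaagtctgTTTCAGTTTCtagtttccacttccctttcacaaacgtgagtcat

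These windows lie at chr14:15988816-15989065 (Cxcl10, plus strand), chr4:5894576-5894825 (Il6, minus strand), chr14:17596418-17596667 (Cxcl6, minus strand), chr10:67513845-67514094 (Ccl7, plus strand), chr12:41330216-41330465 (Oas1a, plus strand) and chr1:241527076-241527325 (Ifit3, plus strand), in that order. The kappaB pattern ended 59 bases before the start of Il6, 79 (or 78 on the other strand) before that of Cxcl6 and 50 before that of Ccl7. In Oas1a a pair of matches overlapped, at 41 to 32 and 35 to 26 bases before the start, and the single match of Ifit3 lay at 44 to 35. Of the 27457 rat promoters of that length searched, 1.07% held the kappaB pattern, against 9 of the 78 genes with a negative difference that had a promoter among them (11.5%), 5 of 11 called chemokine and cytokine genes and 0 of 39 genes with a positive difference. The response element was in 3.29% of all promoters, in 6 of the 78 (7.69%) and in 1 of the 39 (2.56%). It was in 3 of 5 called interferon-stimulated genes (Oas1a, Ifit3 and Parp14) and in 1 of 11 called chemokine and cytokine genes. The latter was Cxcl10, at 243 to 234 bases before its start, a match left in small letters above. Only called genes with a promoter could be counted, which were 5 of 7 interferon-stimulated genes and 11 of 17 chemokine and cytokine genes. The AP-1 letters TGANTCA, a palindrome read once on each strand, were in 6.36% of all promoters, in 16 of the 78 and in 0 of the 39. Such matches describe the letters of a short window and were not tested as binding sites.

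CC chemokines, which draw monocytes, macrophages and lymphocytes, gave 6 negative differences among 17 genes with a probe set (background 0.724%; median over the list -0.49, against 0.0033 over all genes). Ccl2, the main monocyte attractant, had 8.10, 7.75, 7.25 and 7.78 at 15 ppm against 5.14, 5.16, 5.01 and 4.90 in air, and 10.08, 11.80, 10.96 and 11.85 after instilled formaldehyde against 5.26, 5.84, 4.92 and 5.57 after water. It rose after both routes, with no overlap between exposed and control animals, and all instilled formaldehyde animals lay above all inhaled ones. The effect was 2.66 ± 0.37 (SE) for inhalation and 5.77 ± 0.37 (SE) for instillation, 6.34-fold and 54.7-fold, and they differed by -3.11 ± 0.52 (SE; adjusted p = 0.000115).

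Ccl7, which acts on the same receptor, had 4.75, 4.92, 4.91 and 4.87 at 15 ppm against 3.95, 3.87, 3.91 and 4.03 in air, and 7.25, 9.06, 6.95 and 9.09 after instilled formaldehyde against 4.01, 4.24, 3.91 and 3.78 after water. Inhaled animals were close together and just above air animals, while instilled formaldehyde animals stood well above both. The difference by route was -3.18 ± 0.34 (SE; adjusted p = 5.69e-10), with effects of 0.92 ± 0.24 (SE) and 4.10 ± 0.24 (SE). Ccl3 and Ccl4, attractants of monocytes and other leukocytes, were called after instillation only. Ccl3 had 7.83, 7.63, 7.54 and 7.53 at 15 ppm against 6.50, 6.08, 6.73 and 6.61 in air, and 10.11, 11.54, 11.76 and 12.66 after instilled formaldehyde against 6.96, 6.55, 7.20 and 7.26 after water, and its difference was -3.37 ± 0.77 (SE; adjusted p = 0.0113). The inhaled animals lay above all air animals for Ccl3, yet the inhaled effect of 1.15 ± 0.55 (SE) did not pass the test. Ccl4 had 6.71, 6.28, 6.49 and 6.53 at 15 ppm against 6.01, 6.19, 5.87 and 6.40 in air, and 8.22, 9.63, 9.06 and 10.83 after instilled formaldehyde against 5.99, 6.03, 6.32 and 6.29 after water, with a difference of -2.89 ± 0.42 (SE; adjusted p = 3.49e-06). For Ccl4 the instilled formaldehyde animals again lay above the other 12.

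Ccl6 and Ccl9, CC chemokines of rodents, differed by -1.80 ± 0.46 (SE; adjusted p = 0.0295) and -1.74 ± 0.37 (SE; adjusted p = 0.00414), with inhaled effects of 0.86 ± 0.32 (SE) and 0.07 ± 0.26 (SE) that did not pass. Without instilled animal 374 the call was lost for Ccl3, Ccl6 and Ccl9, so that 3 of 17 were called. With the RNA integrity number as covariate it was lost for Ccl4, Ccl6 and Ccl9, and for Ccl9 also in the fit to the 16 later arrays. Ccl20, the attractant of Ccr6-bearing cells, had a difference of -1.17 (adjusted p = 0.389) and was not called.

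CXC chemokines gave 4 negative differences among 14 (median -0.79), and they fall into attractants of neutrophils and interferon-induced attractants of T cells. Cxcl10 and Cxcl11 are of the second kind and bind Cxcr3. Cxcl10 had 5.94, 4.88, 5.03 and 6.52 at 15 ppm against 5.00, 4.79, 5.40 and 5.36 in air, and 9.27, 7.36, 8.74 and 10.28 after instilled formaldehyde against 4.87, 5.66, 4.53 and 5.38 after water, and Cxcl11 behaved alike with a range of 6.24 to 10.52 in instilled formaldehyde animals. For both genes inhaled, air and water animals overlapped, and only instilled formaldehyde animals stood apart, with a wide spread among them. Their differences by route were -3.34 ± 0.67 (SE; adjusted p = 0.0017) and -3.84 ± 0.65 (SE; adjusted p = 0.000115), and their inhaled effects were 0.46 ± 0.47 (SE) and 0.09 ± 0.46 (SE).

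Cxcl6 and Cxcl3 attract neutrophils through Cxcr2. Cxcl6 had 6.29, 6.13, 6.55 and 5.50 at 15 ppm against 5.88, 5.76, 5.49 and 5.74 in air, and 8.26, 8.28, 9.61 and 7.78 after instilled formaldehyde against 5.13, 5.52, 5.12 and 5.64 after water, a difference of -2.73 ± 0.47 (SE; adjusted p = 0.000176). Cxcl3 had 7.28, 7.22, 7.30 and 7.31 at 15 ppm against 6.66, 6.64, 6.71 and 6.76 in air, and 8.43, 9.10, 8.90 and 9.52 after instilled formaldehyde against 6.64, 7.03, 6.74 and 6.81 after water, a difference of -1.60 ± 0.18 (SE; adjusted p = 5.28e-09). Cxcl3 rose after both routes and had the smallest SE of the called chemokines. Of its 4 other probe sets 2 were called with the same sign (-1.52 and -1.68) and 2 of low signal were not (-0.02 and -0.19). Cxcl1 and Cxcl2, neutrophil attractants as well, rose after both routes, by 3.31 and 2.62 after inhalation and by 4.45 and 4.41 after instillation, and their differences of -1.15 and -1.79 did not pass the test (adjusted p = 0.576 and 0.574). The 4 calls were kept whichever animal was left out. Those on Cxcl10 and Cxcl11 were lost in the fit to the 16 later arrays (2 of 14 called) and with the RNA integrity number as covariate. The call on Cxcl10 was also lost without 365 and 374 together.

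**Figure D2:**
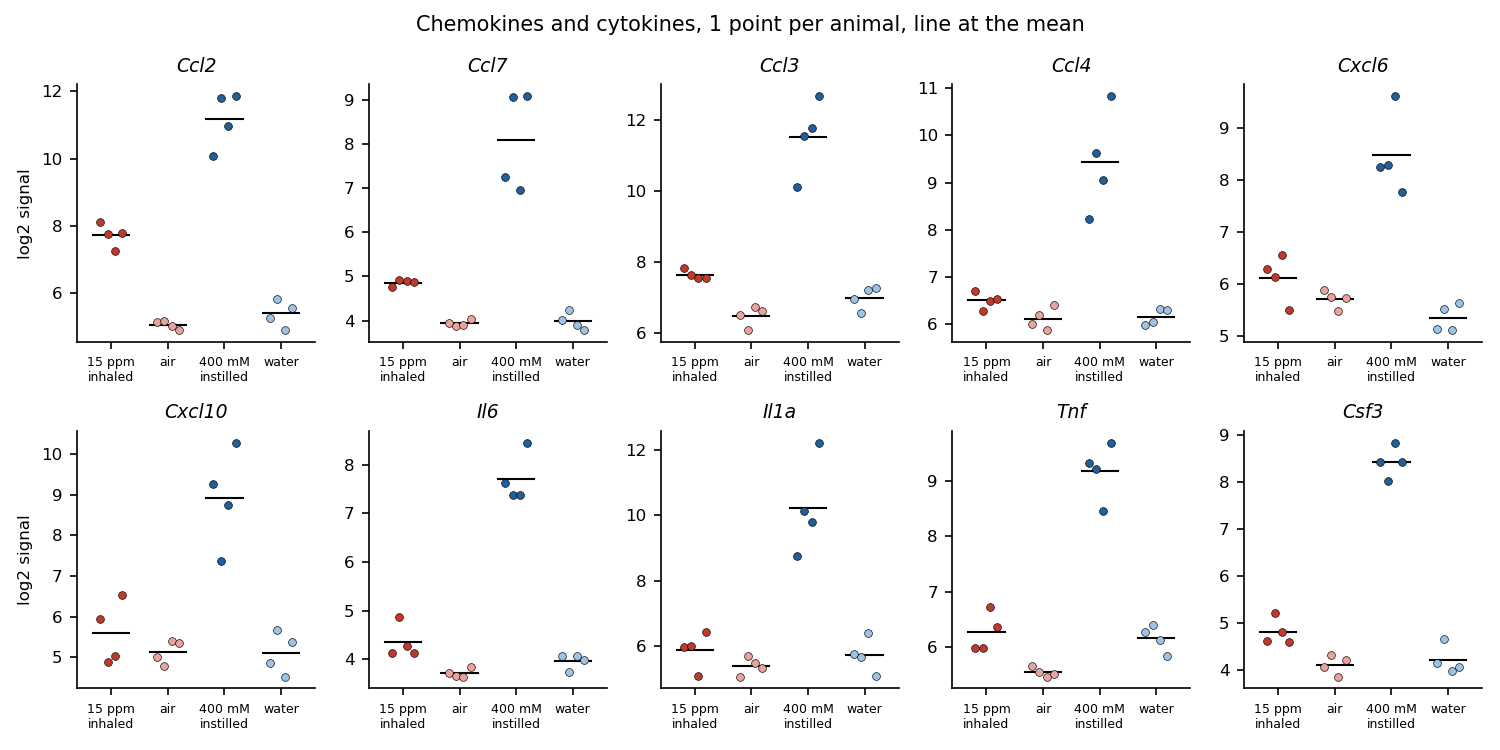
Log2 signal of 10 chemokine and cytokine genes in each animal, with 4 animals per group, from left to right 15 ppm inhaled, air, 400 mM instilled and water. Points are animals and lines are group means. The 4 instilled formaldehyde animals lie above the other 12 in every panel, and in the panels of Ccl2, Ccl7, Ccl3, Il6, Tnf and Csf3 the inhaled animals also lie above all air animals.

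Cytokines and growth factors of inflammation gave 7 negative differences among 23 (median -0.59). Il1a, an interleukin stored in epithelial cells and released on damage, had the largest difference of all called genes. Its signal was 5.99, 6.02, 5.10 and 6.44 at 15 ppm against 5.08, 5.72, 5.50 and 5.35 in air, and 8.76, 10.15, 9.80 and 12.22 after instilled formaldehyde against 5.77, 5.67, 6.42 and 5.11 after water. The inhaled animals overlapped with both control groups. The difference was -4.01 ± 0.87 (SE; adjusted p = 0.00555), and another probe set gave -4.38 (adjusted p = 0.000176). The call on the reported probe set was lost without animal 374, the highest of the instilled animals, and with the RNA integrity number as covariate. Il1rn, whose product blocks the interleukin 1 receptor, differed by -2.56 ± 0.66 (SE; adjusted p = 0.034), a call that 9 of the 16 single animals each removed when left out. The Il1rn call was also lost in the fit to the 16 later arrays and with the RNA integrity number as covariate.

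Il6, which drives the acute phase response and fever, had 4.13, 4.87, 4.27 and 4.14 at 15 ppm against 3.71, 3.65, 3.64 and 3.85 in air, and 7.62, 7.38, 7.38 and 8.46 after instilled formaldehyde against 4.07, 3.73, 4.07 and 3.98 after water. The instilled animals were above all others, and the effect was 3.75 ± 0.28 (SE) for instillation against 0.64 ± 0.28 (SE) for inhalation, which was not called. The difference was -3.11 ± 0.39 (SE; adjusted p = 8.17e-08). Csf3, which releases neutrophils from the bone marrow, had 4.62, 5.21, 4.82 and 4.60 at 15 ppm against 4.07, 4.32, 3.87 and 4.22 in air, and 8.42, 8.02, 8.83 and 8.41 after instilled formaldehyde against 4.16, 4.67, 3.98 and 4.08 after water, and a difference of -3.50 ± 0.45 (SE; adjusted p = 1.51e-07). Inhaled animals lay above air animals for Csf3 without passing the test (adjusted p = 0.192), and no inhaled or control signal exceeded 5.21. Tnf had 5.99, 5.98, 6.73 and 6.36 at 15 ppm against 5.67, 5.55, 5.47 and 5.52 in air, and 9.32, 9.21, 8.46 and 9.69 after instilled formaldehyde against 6.27, 6.39, 6.13 and 5.85 after water, a difference of -2.30 ± 0.45 (SE; adjusted p = 0.00121), and another probe set gave -1.30 (adjusted p = 1.12e-06).

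Oncostatin M (Osm), a cytokine of activated leukocytes, differed by -2.15 ± 0.34 (SE; adjusted p = 2.12e-05). Il23a, a subunit of interleukin 23, differed by -2.08 ± 0.30 (SE; adjusted p = 2.6e-06), with 4.83, 4.81, 4.97 and 5.05 at 15 ppm against 4.79, 4.56, 4.94 and 4.85 in air, and 6.20, 7.25, 6.54 and 8.86 after instilled formaldehyde against 4.94, 5.05, 4.91 and 5.11 after water. Inhaled, air and water animals could not be separated for Il23a. The call on Il23a was lost in the fit to the 16 later arrays and with the RNA integrity number as covariate. Ebi3, the partner subunit in interleukins 27 and 35, was in no list and differed by -3.24 ± 0.58 (SE; adjusted p = 0.000353), with an instilled effect of 3.33 ± 0.41 (SE) and an inhaled one of 0.09 ± 0.41 (SE). With the RNA integrity number as covariate the calls on Osm and Ebi3 were lost as well. Il1b, the secreted interleukin 1, had an effect of 1.75 after inhalation and 4.37 after instillation, and its difference of -2.62 did not pass the test (adjusted p = 0.212).

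Genes that NF-kappaB turns on to limit itself gave 4 negative differences among 18 (median -0.48). Tnfaip3, the ubiquitin-editing brake A20, had 8.50, 8.24, 8.68 and 8.54 at 15 ppm against 7.82, 7.75, 7.93 and 7.53 in air, and 10.83, 10.36, 10.47 and 11.85 after instilled formaldehyde against 7.74, 7.73, 7.99 and 8.08 after water, a difference of -2.26 ± 0.42 (SE; adjusted p = 0.000591). Each instilled formaldehyde animal was above every other animal. Nfkbia, the inhibitor that holds NF-kappaB in the cytoplasm, differed by -1.26 ± 0.32 (SE; adjusted p = 0.031), Nfkbiz by -1.64 ± 0.44 (SE; adjusted p = 0.0445) and the apoptosis inhibitor Birc3 by -1.62 ± 0.41 (SE; adjusted p = 0.0275). Nfkbiz also rose after inhalation, by 1.05 ± 0.31 (SE), and its other probe set, of lower signal, had a difference of -0.21. Tnfaip3 alone stayed called without instilled animal 374 or without water animal 352, which left 1 of 18 in each case. With the RNA integrity number as covariate the calls on Nfkbia, Nfkbiz and Birc3 were lost and that on Tnfaip3 was kept.

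Genes that answer interferon gave 7 negative differences among 26, and 25 of the 26 lay below 0 (median -0.81, the lowest of the 37 lists). After inhalation 0 of the 26 rose and 1 fell, and after instillation 19 rose and 0 fell. Ifit3, which binds viral RNA complexes, had 8.21, 8.46, 7.34 and 8.21 at 15 ppm against 7.49, 7.42, 7.92 and 7.24 in air, and 10.36, 10.48, 11.43 and 11.77 after instilled formaldehyde against 7.87, 7.58, 6.88 and 7.71 after water. Isg15, a ubiquitin-like protein joined to other proteins, had 9.06, 9.40, 8.15 and 9.10 at 15 ppm against 8.39, 8.56, 9.28 and 8.91 in air, and 11.10, 11.03, 11.57 and 12.20 after instilled formaldehyde against 9.25, 9.26, 8.17 and 8.27 after water. In both genes inhaled, air and water animals overlapped. Their differences were -2.96 ± 0.69 (SE; adjusted p = 0.0129) and -2.60 ± 0.55 (SE; adjusted p = 0.00404). Usp18, which removes Isg15 from proteins, differed by -1.62 ± 0.44 (SE; adjusted p = 0.0493), and its 3 higher instilled animals were at 8.99 to 9.08 with animal 369 at 7.58. Herc6, an Isg15 ligase in mice, differed by -1.31 ± 0.33 (SE; adjusted p = 0.0256), the sensors of double-stranded RNA Oas1a and Oasl by -1.50 ± 0.38 (SE; adjusted p = 0.0327) and -2.03 ± 0.48 (SE; adjusted p = 0.0153), and the ADP-ribosyltransferase Parp14 by -0.90 ± 0.21 (SE; adjusted p = 0.0126). Without instilled animal 374 only Isg15 of the 7 was called, with the list median at -0.77. The calls on Oas1a, Usp18, Herc6 and Parp14 were lost in the fit to the 16 later arrays and with the RNA integrity number as covariate. Those on Ifit3, Isg15 and Oasl were kept in both.

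Cxcr2, Tlr2 and Olr1 were the single calls of the lists of neutrophil markers (1 of 13), alarm and antimicrobial genes (1 of 18, median -0.47) and macrophage and dendritic cell markers (1 of 20). Cxcr2, the receptor for Cxcl3 and Cxcl6 on neutrophils, had 5.35, 5.15, 5.00 and 4.86 at 15 ppm against 4.23, 4.50, 4.37 and 4.36 in air, and 6.29, 6.94, 7.41 and 7.53 after instilled formaldehyde against 4.35, 4.57, 4.75 and 4.56 after water, a difference of -1.76 ± 0.34 (SE; adjusted p = 0.00136). It rose after both routes (inhaled effect 0.72 ± 0.24 (SE), adjusted p = 0.0479). Tlr2, the receptor for bacterial lipoproteins, had 7.13, 6.44, 6.35 and 7.15 at 15 ppm against 6.40, 5.81, 5.57 and 6.12 in air, and 8.28, 8.66, 9.21 and 9.80 after instilled formaldehyde against 5.85, 6.05, 5.86 and 6.41 after water, a difference of -2.16 ± 0.45 (SE; adjusted p = 0.0035). Olr1, a scavenger receptor for oxidised lipoprotein, had 3.57, 3.42, 3.58 and 3.39 at 15 ppm against 3.28, 3.38, 3.46 and 3.25 in air, and 5.23, 5.99, 7.48 and 8.24 after instilled formaldehyde against 3.39, 3.44, 3.25 and 3.39 after water, a difference of -3.22 ± 0.43 (SE; adjusted p = 2.65e-07). For Olr1 the 12 animals outside the instilled formaldehyde group were all at 3.25 to 3.58, near the lowest signals of the arrays. No detection calls were used, so these signals were not shown to lie above background. The size of the Olr1 effect is therefore not exact. Il6, Ccl7, Csf3, Cxcl11, Cxcr2, Ccl9, Il23a, Herc6 and Car4 also had a mean signal below 5 over the 98 arrays. For them, too, low signals were not shown to lie above background, so small inhaled effects and large folds are not exact. These genes and Olr1 had no value in the fit with a minimum mean signal of 5. The calls on Olr1 and Tlr2 were lost with the RNA integrity number as covariate, and that on Cxcr2 was kept.

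Ccrl2, which binds the attractant chemerin, differed by -3.25 ± 0.73 (SE; adjusted p = 0.00813), and pleckstrin (Plek), abundant in platelets and leukocytes, by -2.48 ± 0.58 (SE; adjusted p = 0.014). Both calls were lost without animal 374, and that on Plek also with the RNA integrity number as covariate. Over the 13 neutrophil markers with a probe set the summed linear signal was 4325 to 5216 in inhaled animals, 1438 to 2184 in air animals, 8724 to 16100 in instilled formaldehyde animals and 2004 to 3136 in water animals. S100a8 and S100a9, abundant in neutrophils, rose after both routes, by 2.16 and 1.95 after inhalation and 2.47 and 2.35 after instillation, and their differences of -0.31 and -0.40 did not pass the test. The sums of macrophage and dendritic cell markers were 20536 to 29951, 23729 to 26791, 29528 to 46365 and 24002 to 31659 in the same order of groups, and of 16 lymphocyte markers 0 were called (median -0.36). The part of leukocyte number in the chemokine and cytokine differences was not tested, and in such bulk preparations more cells of a type and more RNA per cell cannot be told apart.

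Further lists held 1 or 2 calls each: p53 targets and growth arrest (1 of 20), death and survival (2 of 22), glycolysis and hypoxia (1 of 27), prostaglandin and nitric oxide synthesis (1 of 14), water and ion transport (1 of 23) and the circadian clock (2 of 20). Fas, a death receptor and p53 target, had 6.40, 6.21, 6.52 and 6.10 at 15 ppm against 6.35, 6.28, 6.14 and 6.07 in air, and 7.87, 6.96, 7.71 and 8.38 after instilled formaldehyde against 6.56, 6.47, 6.36 and 6.30 after water, a difference of -1.21 ± 0.22 (SE; adjusted p = 0.000381), which the other probe sets of lower signal did not show (-0.23 and -0.24, not called). Bcl2a1, a survival gene under NF-kappaB, differed by -2.28 ± 0.57 (SE; adjusted p = 0.0237) and the inflammatory caspase Casp4 by -0.72 ± 0.18 (SE; adjusted p = 0.0311). Slc16a3, the lactate exporter, differed by -1.37 ± 0.30 (SE; adjusted p = 0.0052), Gch1, which makes the cofactor of nitric oxide synthases, by -1.08 ± 0.28 (SE; adjusted p = 0.0378), and the bicarbonate-forming enzyme Car4 by -1.57 ± 0.29 (SE; adjusted p = 0.000523). The other probe sets of Gch1 and Car4 were not called (-0.86 and -0.25). Nfil3, a repressor in the circadian system, rose after both routes and differed by -1.08 ± 0.26 (SE; adjusted p = 0.0158). Of these 7 genes none was called with the RNA integrity number as covariate. In the 16 fits that left out an animal the call was lost in 10 for Gch1, 8 for Casp4, 5 for Bcl2a1 and 2 for Nfil3.

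Chaperones gave the one list with called differences of both signs beside the clock list, 3 negative and 1 positive among 17 (median -0.18). Hspa1a, the inducible Hsp70, had 11.49, 11.05, 11.63 and 11.63 at 15 ppm against 10.76, 10.66, 10.47 and 10.60 in air, and 13.17, 13.11, 12.80 and 13.21 after instilled formaldehyde against 10.93, 11.05, 11.29 and 11.47 after water. It rose after both routes and more after instillation, by 0.83 ± 0.19 (SE) and 1.89 ± 0.19 (SE), a difference of -1.06 ± 0.27 (SE; adjusted p = 0.0266). Hspd1 and Hspe1, which form the chaperonin of the mitochondrion, rose after both routes as well. Their inhaled effects were 0.48 ± 0.07 (SE) and 0.54 ± 0.07 (SE), their instilled effects 0.83 ± 0.07 (SE) and 0.96 ± 0.07 (SE), and they differed by -0.35 ± 0.09 (SE; adjusted p = 0.0397) and -0.42 ± 0.09 (SE; adjusted p = 0.00549).

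Stip1, a co-chaperone that links Hsp70 to Hsp90, went the other way. Its signal was 10.09, 10.05, 10.07 and 10.18 at 15 ppm against 9.85, 9.94, 9.85 and 9.74 in air, and 9.69, 9.97, 9.97 and 9.58 after instilled formaldehyde against 10.00, 10.07, 9.96 and 10.25 after water. Inhaled animals lay above all air animals, and instilled formaldehyde animals overlapped with water animals at 9.96 to 9.97. The lowest were 365 and 374 at 9.69 and 9.58, and 369 and 372 lay among the water animals. Stip1 rose by 0.25 ± 0.07 (SE) after inhalation (adjusted p = 0.00787) and fell after instillation (-0.27 ± 0.07 (SE), adjusted p = 0.00169), a difference of 0.52 ± 0.10 (SE; adjusted p = 0.000486), and was the single gene among the 149 with called effects of opposite sign. The air mean of Stip1 was 0.23 below the water mean, a difference that was not called. The call on Stip1 was lost without 365 and 374 together (0.36, adjusted p = 0.0699). In the fit restricted to the 16 later arrays the calls on Stip1, Hspd1 and Hspe1 were lost. With the RNA integrity number as covariate 0 of the 17 chaperones were called. The calls on Hspa1a and Hspd1 were lost in 6 and 9 of the 16 fits that left out an animal.

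Osgin1, a growth inhibitor induced by oxidative stress and known as an NRF2 target, was the called gene with the clearest response to inhalation alone. Its signal was 10.48, 10.17, 10.76 and 10.37 at 15 ppm against 8.96, 8.86, 9.11 and 9.11 in air, and 9.66, 9.68, 9.31 and 9.27 after instilled formaldehyde against 9.42, 9.31, 9.29 and 9.40 after water. All inhaled animals lay above the other 12, a separation that 0.288% of all genes showed, and instilled formaldehyde animals overlapped with water animals. Osgin1 rose 2.7-fold after inhalation (1.43 ± 0.19 (SE), adjusted p = 2.06e-08), its effect after instillation was 0.12 ± 0.19 (SE) (adjusted p = 0.704), and the difference was 1.31 ± 0.27 (SE; adjusted p = 0.00247). It was called in all 16 fits that left out an animal and with the RNA integrity number as covariate. It was the single call among 25 NRF2 target and thiol defence genes (median 0.21). Hmox1 and Srxn1, other members, rose strongly after both routes, by 3.37 and 2.71 after inhalation and by 3.15 and 2.17 after instillation. Their differences by route did not pass the test (adjusted p = 0.93 and 0.678).

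Cdr2, an antigen of cerebellar degeneration, rose by 0.64 ± 0.14 (SE) after inhalation and differed by 0.75 ± 0.20 (SE; adjusted p = 0.0442). Inhaled animal 337 was at 9.06 for Cdr2 and the other inhaled animals at 8.31 to 8.34, and the call was lost without it and in 7 of the other fits that left out an animal. The air mean of Cdr2 was 0.38 below the water mean, a difference that was not called. Compared directly, inhaled animals stood 0.37 above instilled formaldehyde animals, which did not pass the test (adjusted p = 0.0653). Of 10 other planned fits 4 kept the call. The 3 genes that fell after inhalation and were not called after instillation were Ivd, an enzyme of leucine breakdown, Vamp7, a vesicle fusion protein, and Mrpl15, a protein of the mitochondrial ribosome. Ivd had 7.35, 7.38, 7.18 and 7.24 at 15 ppm against 7.94, 7.87, 7.77 and 7.50 in air, and 8.86, 7.88, 7.51 and 8.87 after instilled formaldehyde against 7.92, 7.87, 7.97 and 8.27 after water. Inhaled animals were the lowest, and the instilled formaldehyde animals 365 and 374 were near 8.9 while 369 and 372 overlapped with the controls. The differences of Ivd, Vamp7 and Mrpl15 were -0.76 ± 0.20 (SE; adjusted p = 0.0368), -0.48 ± 0.13 (SE; adjusted p = 0.0499) and -0.33 ± 0.08 (SE; adjusted p = 0.0311). These calls were lost in 11, 10 and 6 of the 16 fits that left out an animal.

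**Figure D3:**
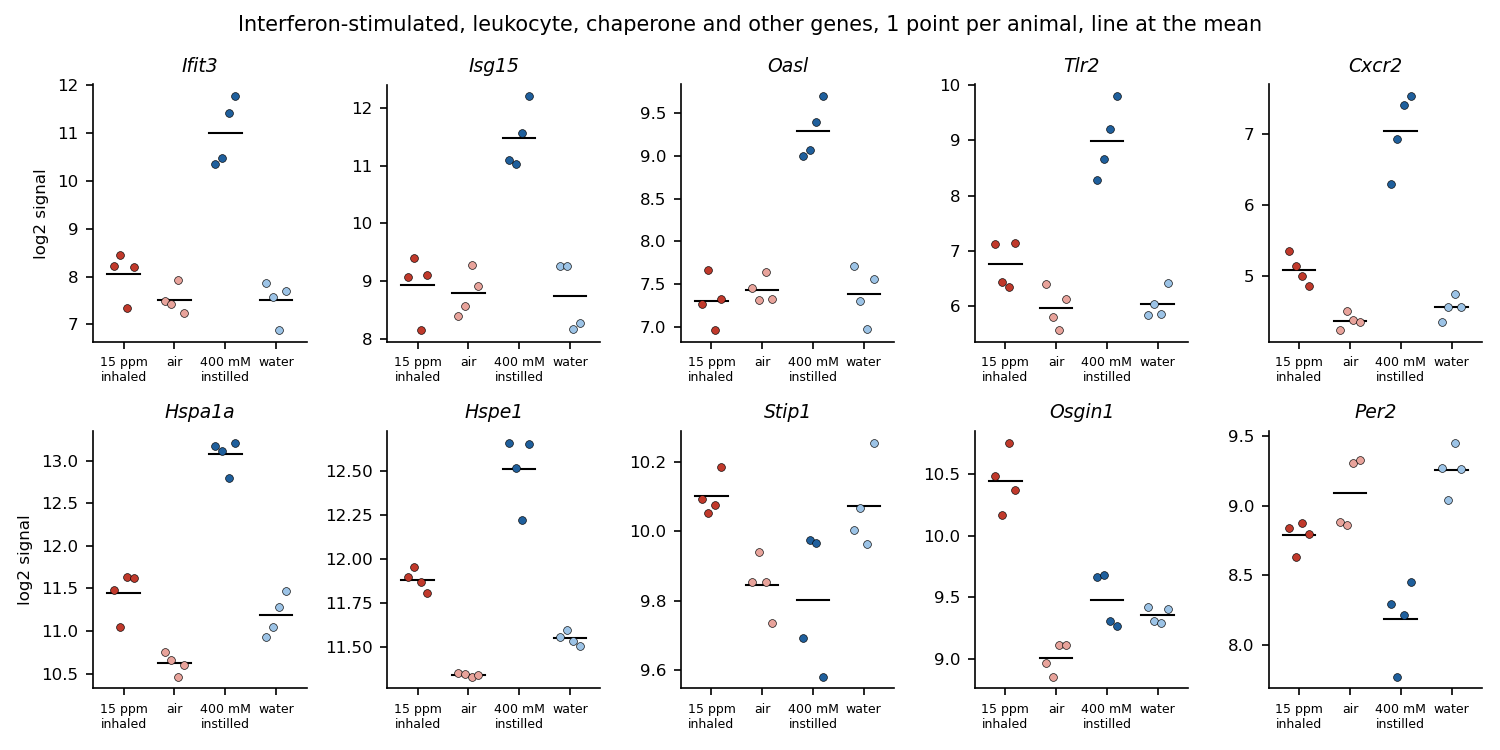
Log2 signal of 10 interferon-stimulated, leukocyte, chaperone and other genes in each animal, with 4 animals per group, from left to right 15 ppm inhaled, air, 400 mM instilled and water, each panel on its own scale. Points are animals and lines are group means. Osgin1 is high in inhaled animals alone, the interferon genes Ifit3, Isg15 and Oasl in instilled formaldehyde animals alone, and Stip1 stands above its control after inhalation and below it, with overlap, after instillation.

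Among genes that fell more after instillation several were even within groups. Tsku, a secreted regulator of growth factor signals, had 9.68, 9.57, 9.63 and 10.05 at 15 ppm against 10.25, 10.03, 10.21 and 10.28 in air, and 8.47, 8.77, 8.38 and 8.57 after instilled formaldehyde against 10.41, 10.27, 10.37 and 10.48 after water, a difference of 1.37 ± 0.25 (SE; adjusted p = 0.000353). Nat8f5, of the N-acetyltransferase 8 family that finishes mercapturic acids, had 7.53, 7.81, 7.76 and 7.71 at 15 ppm against 8.14, 8.15, 8.48 and 8.46 in air, and 7.11, 6.62, 6.51 and 6.73 after instilled formaldehyde against 8.71, 8.35, 8.76 and 8.36 after water, a difference of 1.20 ± 0.24 (SE; adjusted p = 0.0019), and its relative Nat8f3 differed by 1.38 ± 0.26 (SE; adjusted p = 0.000702). The inhaled means of Tsku and Nat8f5 lay between those of the instilled formaldehyde animals and both controls. Nat8f5 was the single call among 27 xenobiotic enzymes (median 0.03).

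Fam107a, an actin-associated stress gene, differed by 1.28 ± 0.27 (SE; adjusted p = 0.00308), the neutral amino acid carrier Slc1a4 by 1.10 ± 0.21 (SE; adjusted p = 0.000702), and the Wnt-dampening ligase Znrf3 by 1.06 ± 0.23 (SE; adjusted p = 0.00671). C10h17orf58 had 11.85 to 12.40 in inhaled and 12.18 to 12.50 in air animals, and 11.14 to 11.24 in instilled formaldehyde and 12.32 to 12.35 in water animals, a difference of 0.97 ± 0.23 (SE; adjusted p = 0.0166). Its other probe set differed by 0.93 without passing the test (adjusted p = 0.0927), and that of Fam107a by 0.23. Gpr155, an integral membrane protein, differed by 1.52 ± 0.35 (SE; adjusted p = 0.0129) and Tox3 by 1.04 ± 0.28 (SE; adjusted p = 0.0425), while another probe set of each, of signal near 3.4, went the opposite way by -0.18 and -0.08 without being called. A brighter probe set of Tox3, with a mean signal of 6.22, gave 0.13 and was not called either. The Tox3 call was lost in 11 of the 16 fits that left out an animal. Calls on Slc1a4, Znrf3 and Tox3 were lost in the fit to the 16 later arrays and with the RNA integrity number as covariate. That on Znrf3 was also lost without instilled animal 374.

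Kcnj1, a potassium channel used here as an ionocyte marker, had 8.59, 8.40, 9.11 and 9.06 at 15 ppm against 9.31, 8.93, 9.76 and 8.88 in air, and 7.36, 6.68, 7.04 and 5.83 after instilled formaldehyde against 8.58, 8.78, 8.69 and 9.46 after water. Instilled formaldehyde animals were below the other 12, and the difference was 1.72 ± 0.43 (SE; adjusted p = 0.0236), lost in 6 of 16 fits that left out an animal. It was the single call among 19 tuft cell and ionocyte markers (median 0.32), of which 4 fell after inhalation and 12 after instillation. Per2, a component of the circadian clock, had 8.84, 8.63, 8.88 and 8.79 at 15 ppm against 8.88, 8.86, 9.31 and 9.32 in air, and 8.30, 7.77, 8.21 and 8.45 after instilled formaldehyde against 9.27, 9.04, 9.45 and 9.26 after water, a difference of 0.76 ± 0.19 (SE; adjusted p = 0.0237). Its other probe set did not show it (0.07), and the Per2 call stayed in 11 of the 16 fits that left out an animal. Calls on Kcnj1 and Per2 were lost in the fit to the 16 later arrays and with the RNA integrity number as covariate.

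A further set of genes with a positive difference rested on animals 365 and 374 of the instilled group. Dhx36, a helicase for G-quadruplex nucleic acids, had 9.24, 9.02, 9.39 and 9.07 at 15 ppm against 9.19, 9.21, 9.40 and 9.01 in air, and 4.67, 8.83, 8.81 and 4.64 after instilled formaldehyde against 9.39, 8.81, 8.89 and 8.41 after water, in which 4.67 and 4.64 belong to animals 365 and 374. The other instilled animals overlapped with the water animals. The difference was 2.11 ± 0.52 (SE; adjusted p = 0.0211), and the 4 other probe sets of Dhx36 gave 1.41, 0.51, 0.06 and -0.01, none of them called. Ccnd2, a cyclin of the first growth phase and the single call among 33 cell cycle genes, had 8.65, 8.80, 8.99 and 8.76 at 15 ppm against 8.37, 8.70, 8.68 and 8.61 in air, and 7.08, 9.02, 8.71 and 7.41 after instilled formaldehyde against 9.47, 9.36, 9.62 and 9.27 after water, a difference of 1.59 ± 0.37 (SE; adjusted p = 0.0135). For Ccnd2 the water animals stood 0.84 above the air animals, and 369 and 372 lay near the inhaled level.

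The same animals were the lowest for Snx27, which returns receptors from endosomes (1.29 ± 0.34 (SE; adjusted p = 0.0398)), Elavl1, an RNA-binding stabiliser of messages (1.08 ± 0.20 (SE; adjusted p = 0.000718)), Ccar1 (1.17 ± 0.31 (SE; adjusted p = 0.0424)), Zfp292 (1.10 ± 0.30 (SE; adjusted p = 0.0458)), Sertad2 (1.07 ± 0.27 (SE; adjusted p = 0.0278)) and Bcr (1.18 ± 0.26 (SE; adjusted p = 0.00555)). The other probe sets of Snx27, Elavl1, Ccar1, Zfp292 and Sertad2 lay between -0.13 and 0.49 and were not called. The calls on Snx27, Ccar1 and Zfp292 stayed in 3, 5 and 5 of the 16 fits that left out an animal. Those on Sertad2, Bcr and Elavl1 stayed in 9, 15 and 16. With 1 mean per gene over its probe sets, Snx27, Ccar1 and Zfp292 were not called. In the fit to the 16 later arrays none of these genes, Bcr included, was called. In 21 of the 46 genes with a positive difference 365 and 374 were the lowest instilled animals, and in 77 of the 103 with a negative difference 374 was the highest. Within the instilled formaldehyde group the range exceeded 1 log2 unit in 66 of the 103 genes and 16 of the 46, against 6 and 1 in the inhaled group, 0 and 0 in the air group and 4 and 0 in the water group. These counts cover called genes alone and were not made over all genes, so they do not show a trait particular to the called genes. Over all probe sets the median SD was 0.18 in instilled formaldehyde, 0.14 in inhaled, 0.12 in air and 0.13 in water animals. Ube2o, a ubiquitin-conjugating enzyme, had a difference of 1.25 ± 0.33 (SE; adjusted p = 0.0363) that any of 9 single animals removed. The cause of the split among instilled animals was not tested.

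**Figure D4:**
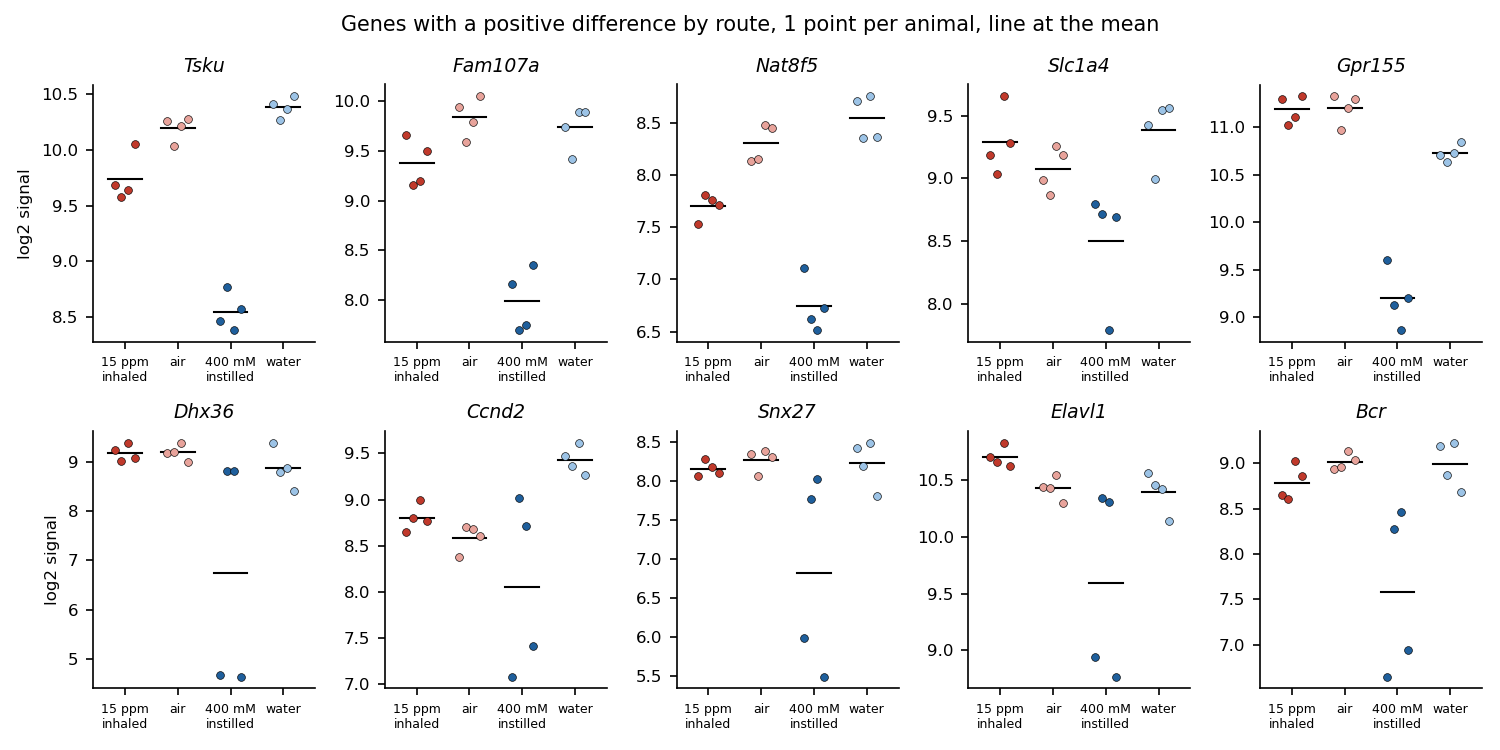
Log2 signal of 10 genes with a positive difference by route in each animal, with 4 animals per group, from left to right 15 ppm inhaled, air, 400 mM instilled and water, each panel on its own scale. Points are animals and lines are group means. In the upper row the instilled formaldehyde animals lie together below their water controls, except 1 low animal for Slc1a4, while in the lower row 2 of them (365 and 374) lie far below the other 2.

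Several lists held no called difference. Adhesion and leukocyte entry had 0 of 11 with a median of -0.53 and 10 of 11 below 0. Of its genes 1 rose after inhalation and 7 after instillation. The others included immediate early factors (0 of 33, median -0.04), EGF receptor ligands and wound repair (0 of 28, -0.04), the unfolded protein and integrated stress response (0 of 30, -0.06), ribosome biogenesis (0 of 31, 0.16), crosslink repair (0 of 22, -0.08) and formaldehyde and aldehyde metabolism (0 of 27, 0.10). Some of these responded to each route: immediate early factors had 16 rises after inhalation and 20 after instillation, and ribosome biogenesis genes 24 and 23. A difference that missed the call does not show equal effects. Markers of ciliated cells (0 of 18, median 0.27), secretory cells (0 of 21, -0.24), basal and squamous epithelium (0 of 24, -0.26), stroma (0 of 20, 0.17), olfactory epithelium (0 of 15, 0.27) and red cells (0 of 6, median 0.85) were not called either. Summed olfactory marker signal was 19936 to 40226 in inhaled, 23639 to 36212 in air, 13984 to 16620 in instilled formaldehyde and 10928 to 21942 in water animals. The protocol discards that epithelium. Such a sum does not say which genes gave the signal, and Stoml3 is also in the list of ciliated cells. Whether olfactory RNA was present was therefore not tested.

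**Figure D5:**
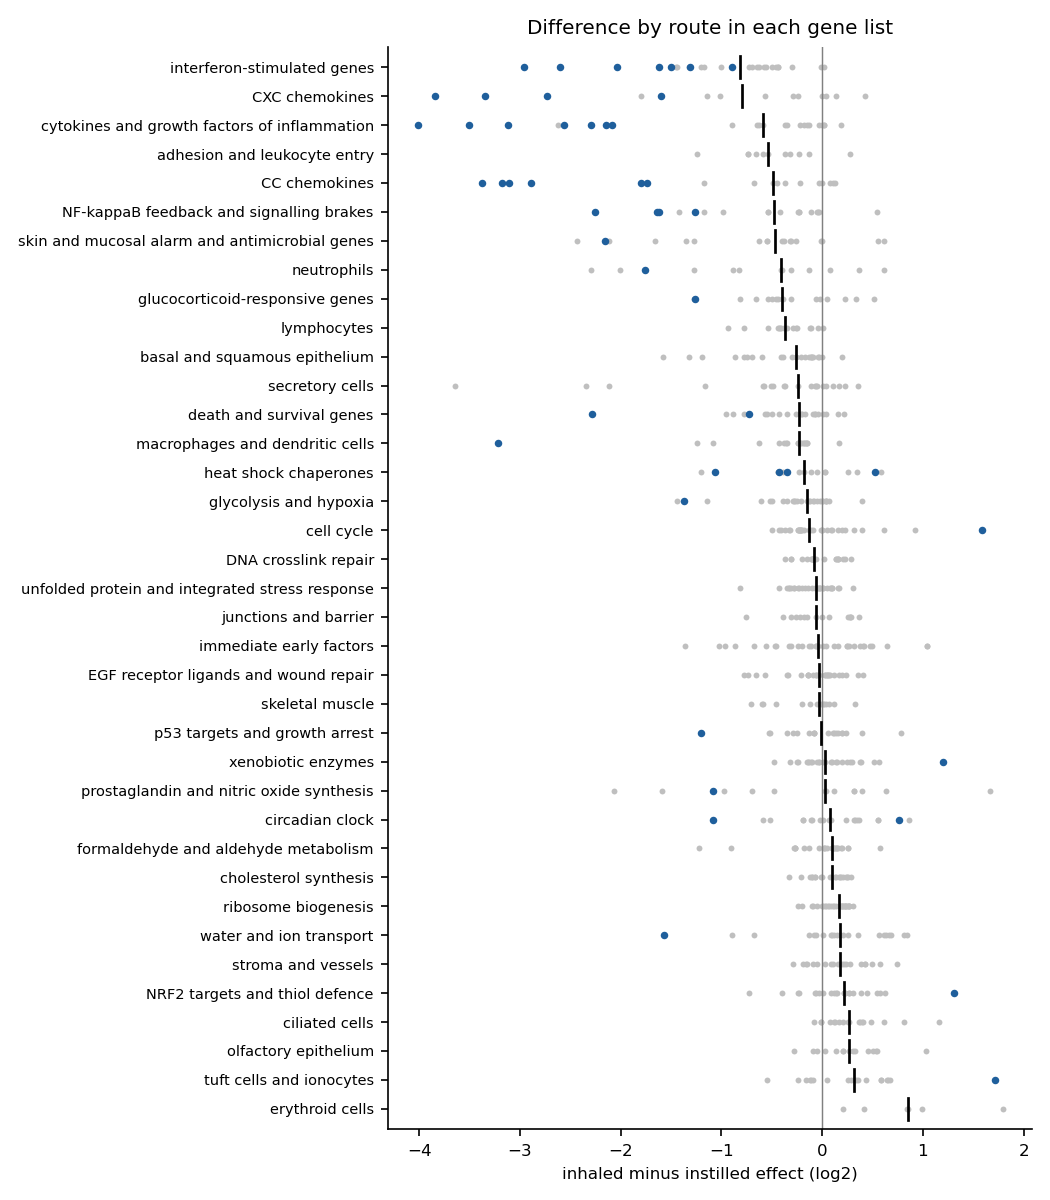
Inhaled minus instilled effect (log2) of each gene in 37 gene lists, with lists ordered by their median. Blue points are called genes, grey points are genes not called and black bars are list medians. Called genes gather at the negative end in the interferon, chemokine and cytokine lists, and Osgin1, Kcnj1, Ccnd2, Nat8f5, Per2 and Stip1 are the blue points to the right of 0.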

How the data were processed

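Affymetrix Rat230_2 arrays were used as deposited: the authors' log2 signals per probe set, with medians of 5.93 to 6.07 per array, so values appear normalized between arrays, with the software not stated in the labels. With R 4.3.3, limma 3.58.1 (lmFit, contrasts.fit, eBayes with a constant prior) was fitted to 98 arrays in 24 groups, 74 residual degrees of freedom and no covariate. The 57 control probe sets were left out, and p-values were two-sided and Benjamini-Hochberg adjusted over 31042 probe sets. The ± values are SEs of the model, which assumes 1 spread for all groups, and the number of animals limits the precision.

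Probe sets were named from the platform annotation, updated by gene ID to GRCr8 (20826 with 1 gene, 436 with several, 9780 with none). Named genes were the 20 most negative and 20 most positive called genes, each called list member, genes with opposite called effects and up to 12 called after inhalation only, 70 in all. Members and lists were chosen with earlier results of these data known. The fit was run on simulated data with 1 spread for all groups and changes in the inhaled group alone. That run does not check calls at the wider spread of the instilled formaldehyde group. Labels do not say whether animals were handled together, so p-values measure only the spread between animals within groups. That spread is pooled over all groups of the series, and most of the arrays lie outside the groups compared. The p-values are therefore not measured against the scatter of the compared animals alone. For Ccl7 the SD was 1.15 in instilled formaldehyde animals, against 0.08 in inhaled, 0.07 in air and 0.20 in water animals.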

Additional observations from a re-analysis of the deposited data

Results flagged for a closer look

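Of 280 groups of 4 animals (70 named genes in 4 groups), 8 held an animal far from the other 3 by Dixon's criterion, where chance flags about 1 in 20. Among exposed animals these were inhaled animal 342, low at 6.65 for Oas1a, inhaled animal 337, high at 9.06 for Cdr2, and the instilled formaldehyde animals 369, low at 7.58 for Usp18, and 372, low at 7.79 for Slc1a4. Among controls they were air animal 323, high at 8.00 for Cdr2, and the water animals 356, high at 8.86 for Gch1, 354, high at 9.67 for Vamp7, and 352, low at 9.44 for Mrpl15.

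The test of the difference between effects was passed by 149 genes. Stip1 was the single gene of these with called effects of opposite sign, at a difference by route of 0.52.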

How the results depend on the processing

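No paired analysis was possible because no animal number is shared between groups. None of the 70 named genes changed sign under any alternative. The 273 called probe sets (172 negative, 101 positive) became 84 (66 and 18) with the 16 later arrays alone and 44 (32 and 12) with the RNA integrity number as covariate as well. They became 2806 (1147 and 1659) with air animals of the first array set as control and 4919 (2584 and 2335) when inhaled and instilled animals were compared directly. Leaving out 1 animal gave 104 to 574 in all, 65 to 264 negative and 39 to 311 positive, with the fewest without instilled animal 374. Chosen after seeing the data, the fits without instilled animals 365 and 374 gave 192 (112 and 80), and without 369 and 372 gave 1378 (625 and 753). The cause of these changes in the counts was not tested. Cyclic loess, a minimum mean signal of 5, a variance trend and weights per group or array gave 257 to 315. Of the 70 named genes, 31 stayed called in all 16 fits that left out an animal and 16 in all planned fits that gave them a value. With 1 mean per gene over its probe sets 66 of the 70 were called.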

Other observations

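Of the 149 called genes 102 were in no list, and the genes named here were chosen after their values were seen. They include 9 receptors or receptor chains of leukocytes, picked because they were called, so they do not describe such receptors as a group. Tlr1, a partner of Tlr2, differed by -1.91 ± 0.34 (log2, SE; adjusted p = 0.000366), Siglec5 by -1.84, Clec7a, which binds fungal glucan, by -1.79, the tumour necrosis factor receptor Tnfrsf1b by -1.60, the immunoglobulin receptor Fcgr1a by -1.17, Gpr84, a receptor for fatty acids, by -1.12 and the interleukin 10 receptor chain Il10ra by -1.07. The chains that receive granulocyte and macrophage growth factor, Csf2ra and Csf2rb, differed by -0.79 and -0.60. The inhaled effects of these 9 genes were 0.02 to 0.36, none of them called, and their instilled effects were 0.68 to 2.20, all called. Other called receptors of leukocytes were left out, so these ranges hold for the 9 alone. Among those left out, Pira2 had 6.74 to 7.10 in inhaled and 6.12 to 6.60 in air animals, without overlap. For Il3ra, also left out, inhaled animals (5.22 to 5.66) overlapped with air animals (5.37 to 5.64). Pde4b, a phosphodiesterase for cyclic AMP, differed by -1.73, and Crem, a factor that answers cyclic AMP, by -1.44.

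Zfand2a, a heat shock gene, rose after both routes, by 1.81 after inhalation and 2.76 after instillation, and differed by -0.95 (adjusted p = 0.0324). The Notch ligand Jag2 and the Notch target Hey2 fell after instillation by 0.82 and 1.09 on the log2 scale, and differed by 0.63 and 0.75.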
